A study of Homo sapiens with 12 samples.

Results

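The transcripts that encode the catalytic and structural subunits of the CCR4-NOT and PAN2-PAN3 deadenylases were examined in HuR immunoprecipitates from MiaPaCa-2, an established human pancreatic ductal adenocarcinoma (PDAC) line. The group was chosen by gene name, as 10 listed genes, and a gene was measured where the Clariom D array has a transcript cluster annotated with its symbol alone. This was so for 7 of 10 genes (CNOT2, CNOT3, CNOT4, CNOT6, CNOT6L, CNOT7 and CNOT8), each with 1 such cluster, out of 33458 genes tested. The clusters are TC1200008162.hg.1 (CNOT2, chromosome 12), TC1900008833.hg.1 (CNOT3, chromosome 19), TC0700012701.hg.1 (CNOT4, chromosome 7), TC0500009725.hg.1 (CNOT6, chromosome 5), TC0400011108.hg.1 (CNOT6L, chromosome 4), TC0800012392.hg.1 (CNOT7, chromosome 8) and TC0500009181.hg.1 (CNOT8, chromosome 5). CNOT1, PAN2 and PAN3 were covered only by clusters that carry another gene's symbol as well (SNORA50A, CNPY2 and a U6 pseudogene, respectively), so their signal cannot be assigned to them and they were not analysed here. Neither subunit of the PAN complex therefore has a value below.

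Shortening of the poly(A) tail is the step that starts the decay of most mRNAs. PAN2-PAN3 trims long tails, and CCR4-NOT takes over and removes the rest. CCR4-NOT is built on the scaffold CNOT1 and carries 1 nuclease of the Ccr4 type (CNOT6 or its paralogue CNOT6L) and 1 of the Caf1 type (CNOT7 or its paralogue CNOT8). CNOT2 and CNOT3 form a separate module on the scaffold, and CNOT4 is an E3 ubiquitin ligase that is only loosely attached in mammals. HuR (ELAVL1) is an RNA-binding protein that recognises U-rich and AU-rich elements, mostly in 3′ untranslated regions. It is best known for protecting mRNAs that are otherwise deadenylated and degraded. The study used the arrays to find transcripts bound by HuR, and the comparison below asks which deadenylase transcripts were recovered with it.

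The 12 arrays fell into 6 groups of 2, by treatment and antibody. Cells received the vehicle DMSO, the PARP inhibitor olaparib (10 µM) or the nucleoside analogue gemcitabine (1 µM), and both drugs were given for 16 h. A cytoplasmic extract was then precipitated with an anti-HuR antibody (HuR-IP) or with control IgG (IgG-IP), and the RNA that came down was amplified and hybridised. All groups share the 1 cell line, and the untreated state is represented by DMSO alone. Arrays of 1 group are labelled as biological replicates, and nothing says whether they came from separate cultures, so p-values measure only the spread between these arrays. With 2 arrays per group, their number limits the precision of every value. No input RNA was analysed here, so the IgG-IP is the only reference. In such precipitates, more binding by HuR and more of a transcript in the extract cannot be told apart. A level is the deposited log2 signal of a gene's cluster and a log2 fold change (log2FC) is HuR-IP minus IgG-IP. Levels are not compared between genes, because probes differ in brightness.

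Array medians lay between 3.71 and 3.94 and the medians of the array's own background probes between 2.88 and 3.01. Keratin 18 (KRT18) and vimentin (VIM) were bright, at 11.34 to 16.12 and 10.76 to 14.24, whereas EPCAM, an epithelial defining marker, lay at 2.81 to 3.68 and so near the background level. KRT18 and VIM were lower in HuR-IP, the 2 calls among 5 markers of the line, where 7.51% of all genes were lower. KRT8 lay at 9.10 to 11.6 and KRT19 at 3.92 to 7.87, and neither was called. Leukocyte, endothelial and acinar or islet markers had gene means of at most 5.73 in IgG-IP. Of 2 fibroblast markers, COL1A1 was at 8.07 to 10.41 over the 12 arrays and DCN at 3.66 to 4.76, and neither was called between antibodies. Among HuR-IP arrays, the number 2 arrays of DMSO and of gemcitabine stood closer to their IgG-IP arrays than the other 4 did. Over the 9139 genes with a mean level above 6, the SD of the HuR-IP minus IgG-IP difference between arrays of the same number was 1.12 and 1.20 for these, against 2.02 to 2.24 for the rest. The main results are given with and without these 2 arrays. Because they were picked for a small difference between antibodies, leaving them out enlarges that difference by construction, and values without them are a description. ELAVL1 mRNA itself had a log2FC of 1.19 (adjusted p = 0.0516, limma), and 0.00696 with the replicate number as a block. ELAVL1 lay at 19.27 to 19.61 on 4 HuR-IP arrays, at the top of the array scale (array maxima 19.48 to 19.88), so this difference may be compressed.

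Averaged over the 3 treatments, 1 of the 7 measured subunits, CNOT6, passed an adjusted p of 0.05 and was higher in HuR-IP, and none was lower. Over all genes tested, 2.39% were called higher and 7.51% lower by the same rule. All-gene shares here and below include many dim genes. Only 12219 of the 33458 genes had a mean level above 5, and in a fit of these 1059 were higher and 2610 lower. CNOT6 was 4.48-fold higher (95% interval 1.84 to 10.9). CNOT7 had the larger log2FC of 3.01 but missed the threshold. CNOT3 was the subunit with the lowest log2FC, at -1.44. At an unadjusted p of 0.05, CNOT6 and CNOT7 were higher and CNOT3 was lower, against 8.02% of all genes higher and 16.0% lower. With the replicate number as a block, 3 members were higher (CNOT2, CNOT6 and CNOT7) and 1 was lower (CNOT3), against a background of 6.62% and 11.6%. The median log2FC of the 7 genes was 0.69, that of all genes tested was -0.07, and that of the 9139 brighter genes was -0.56. Without the number 2 HuR-IP arrays of DMSO and gemcitabine, 2 members were higher (CNOT6 and CNOT7) and 2 lower (CNOT3 and CNOT4), against 6.75% of all genes higher and 11.0% lower in that fit.

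**Figure D1:**
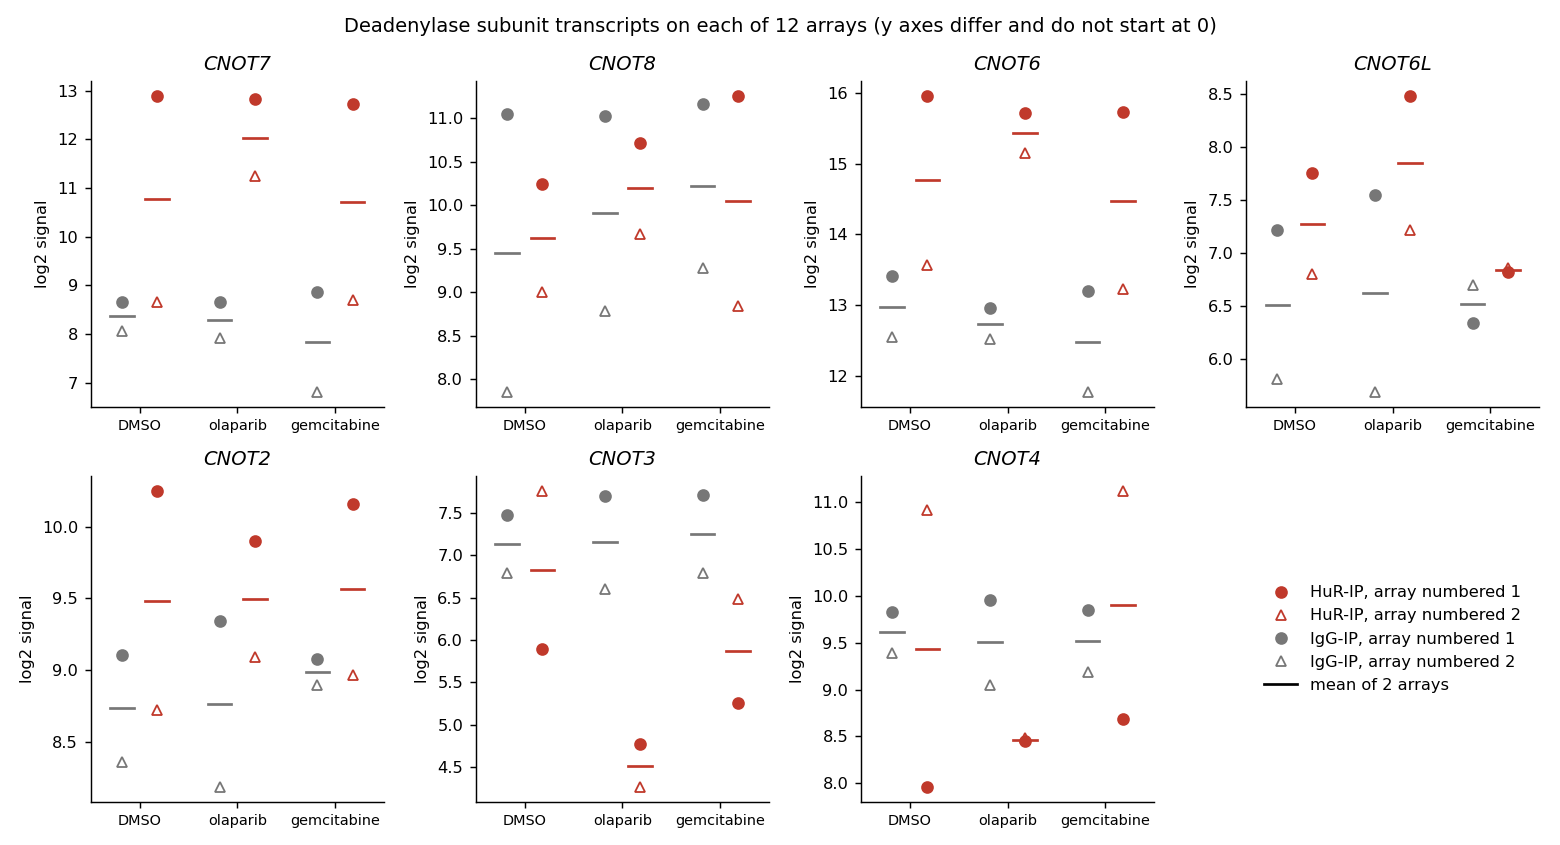
Log2 signal (y axis, a different range for each gene, not starting at 0) of the 7 measured subunits on each of the 12 arrays, by treatment on the x axis; red is HuR-IP, grey is IgG-IP, filled circles and open triangles are the arrays numbered 1 and 2, and bars are means of 2 arrays. CNOT6 lay above both IgG-IP arrays in every treatment, while the HuR-IP arrays of CNOT7 spread from 8.66 to 12.89.

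Among the nucleases, CNOT6, a Ccr4-type exonuclease of the complex, was higher in HuR-IP and did not overlap with IgG-IP within a treatment. In DMSO its levels were 13.40 and 12.55 in IgG-IP and 15.96 and 13.57 in HuR-IP (replicates 1 and 2, in this order throughout). In olaparib they were 12.95 and 12.52 in IgG-IP and 15.72 and 15.16 in HuR-IP. In gemcitabine they were 13.19 and 11.77 in IgG-IP and 15.74 and 13.22 in HuR-IP. All 6 HuR-IP arrays lay above both IgG-IP arrays of their treatment, although the number 2 arrays of DMSO and gemcitabine did so by small margins. CNOT6 was the only 1 of the 7 measured subunits with no overlap in any treatment, and this was so for 3.22% of all genes upward and 8.15% downward, where no subunit stood. The mean log2FC was 2.16 ± 0.56 (SE, n = 6 arrays per antibody, adjusted p = 0.0473, limma). It was higher than in 92.0% of the brighter genes. This call was near its threshold. With the replicate block the adjusted p was 0.00256 (limma). The call was kept in all 8 alternative settings other than the loss of 1 array, at an adjusted p of at most 0.04997. It was lost when any 1 of 10 arrays was left out (adjusted p up to 0.116) and was kept without the HuR-IP array numbered 2 of DMSO or that of gemcitabine.

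CNOT6L, the paralogue that can take the place of CNOT6 in the complex, had a mean log2FC of 0.77 ± 0.42 (SE, adjusted p = 0.307, limma). Its levels in DMSO were 7.21 and 5.81 in IgG-IP and 7.75 and 6.80 in HuR-IP. In olaparib they were 7.55 and 5.69 against 8.48 and 7.21, and in gemcitabine 6.34 and 6.70 against 6.82 and 6.86. The 2 antibodies overlapped in DMSO and olaparib and were apart only in gemcitabine, where the difference was smallest, at 0.33. Each HuR-IP array was above the IgG-IP array of the same number, by 0.17 to 1.52. In 1 of 8 other settings CNOT6L was called higher (adjusted p = 0.0415, limma). Its cluster lay at 5.69 to 8.48, nearer the array medians than that of CNOT6, at 11.77 to 15.96. Whether this lowered the log2FC of CNOT6L was not tested. The log2FC of CNOT6 exceeded that of CNOT6L by 1.39 (exact two-sided permutation test of antibody labels within treatments, p = 0.0463, adjusted over the 2 paralogue pairs 0.0463). The smallest p this design allows is 0.00926. With labels exchanged only between arrays of the same number, p was 0.0313, the smallest this allows, and the adjusted p was 0.0625. The call also ended when any 1 of 9 arrays was left out, and was kept without the HuR-IP array numbered 2 of DMSO, that of gemcitabine or the IgG-IP array numbered 2 of olaparib.

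CNOT7, the Caf1-type nuclease that binds both the scaffold and the Ccr4-type partner, had the largest difference between antibodies of the 7 and also the largest spread. In DMSO its levels were 8.67 and 8.07 in IgG-IP and 12.89 and 8.66 in HuR-IP. In olaparib they were 8.67 and 7.91 in IgG-IP and 12.82 and 11.24 in HuR-IP. In gemcitabine they were 8.86 and 6.81 in IgG-IP and 12.73 and 8.69 in HuR-IP. The 3 HuR-IP arrays numbered 1 and the number 2 array of olaparib were thus far above every IgG-IP array, and the remaining 2 HuR-IP arrays were within the IgG-IP range of their treatment. The mean log2FC was 3.01 ± 0.92 (SE, 95% interval 0.91 to 5.11), with an adjusted p of 0.0790 in limma and 0.00527 with the replicate block. Without the number 2 HuR-IP arrays of DMSO and gemcitabine it was 4.39. The value of 3.01 was above that of 96.4% of the brighter genes.

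CNOT8, the paralogue of CNOT7, did not pass the test. Its levels were 11.04 and 7.85 in IgG-IP and 10.24 and 9.003 in HuR-IP in DMSO. In olaparib they were 11.02 and 8.79 against 10.71 and 9.67, and in gemcitabine 11.16 and 9.27 against 11.25 and 8.84. The arrays numbered 1 were above those numbered 2 for both antibodies, and the 2 antibodies overlapped in each treatment. The mean log2FC was 0.10 ± 0.74 (SE, adjusted p = 0.959, limma), and its 95% interval of -1.60 to 1.80 leaves room for a difference in either direction. The log2FC of CNOT7 exceeded that of CNOT8 by 2.91 (exact two-sided permutation test, p = 0.0185, adjusted over the 2 pairs 0.0370). Between arrays of the same number the excess ranged from -0.56, for the number 2 arrays of DMSO, to 5.03, for the number 1 arrays of DMSO. Restricting the exchange to same-numbered arrays gave a p of 0.0625, where the smallest possible is 0.0313, and an adjusted p of 0.0625. The call ended at an adjusted p of 0.0556 when the HuR-IP array numbered 1 of DMSO or of olaparib, the IgG-IP array numbered 1 of DMSO, or either IgG-IP array of gemcitabine was left out.

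**Figure D2:**
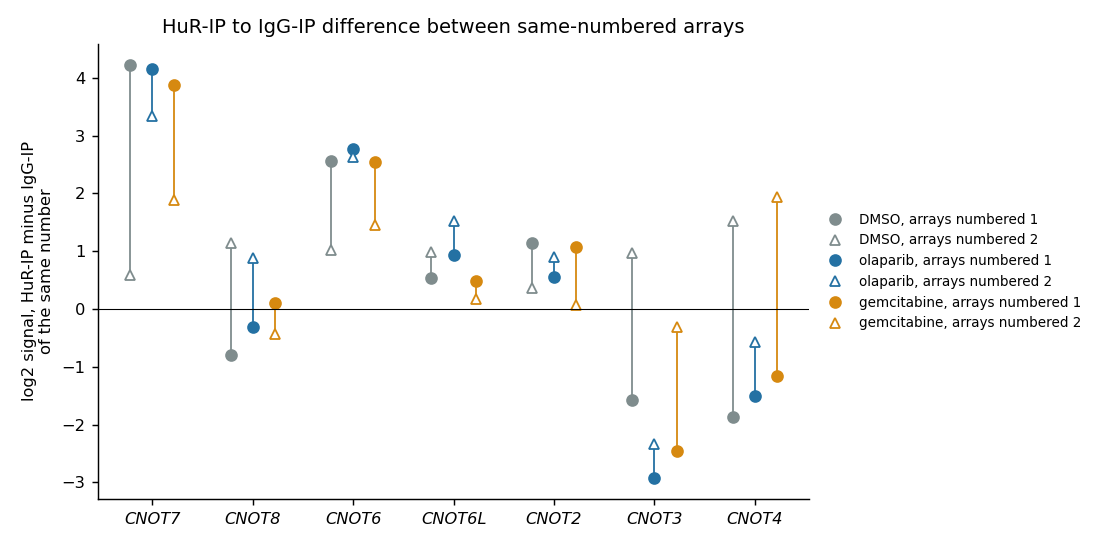
HuR-IP minus IgG-IP log2 signal (y axis) between arrays of the same number, for the 7 measured subunits on the x axis; colours are treatments, filled circles the arrays numbered 1, open triangles those numbered 2, and a line joins both of a treatment. The points of CNOT6, CNOT6L, CNOT7 and CNOT2 all lie above 0, and those of CNOT3, CNOT4 and CNOT8 lie on both sides.

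CNOT2 and CNOT3, which pair through their C-terminal domains and help hold the complex on its targets, had log2FC of opposite sign. CNOT2 levels with DMSO were 9.11 and 8.36 in IgG-IP and 10.25 and 8.72 in HuR-IP. They were 9.34 and 8.18 against 9.90 and 9.09 with olaparib and 9.08 and 8.89 against 10.16 and 8.97 with gemcitabine. The antibodies overlapped in each treatment, but each HuR-IP array was above its same-numbered IgG-IP array, by 0.07 to 1.14. The mean log2FC was 0.69 ± 0.37 (SE), with an adjusted p of 0.313 in limma and 0.0422 with the replicate block.

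On the IgG-IP arrays CNOT3 was at 7.48 and 6.79 with DMSO, at 7.70 and 6.61 with olaparib, and at 7.71 and 6.79 with gemcitabine. On the HuR-IP arrays it was at 5.89 and 7.75 with DMSO, at 4.77 and 4.27 with olaparib, and at 5.26 and 6.49 with gemcitabine. The IgG-IP arrays were alike in the 3 treatments. The HuR-IP arrays were below both IgG-IP arrays in olaparib and gemcitabine, and in DMSO only 1 of them was. The mean log2FC was -1.44 ± 0.41 (SE), with an adjusted p of 0.0629 in limma and 0.0459 with the replicate block. The value was -1.95 without the number 2 HuR-IP arrays of DMSO and gemcitabine.

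CNOT4, the ubiquitin ligase, depended on the array number. In DMSO its levels were 9.83 and 9.39 in IgG-IP and 7.96 and 10.92 in HuR-IP, and in gemcitabine they were 9.85 and 9.19 against 8.69 and 11.12. In olaparib they were 9.96 and 9.05 against 8.45 and 8.48. The HuR-IP arrays of DMSO and gemcitabine therefore bracketed the IgG-IP arrays, whereas both HuR-IP arrays of olaparib were below them. The mean log2FC was -0.28 ± 0.58 (SE, adjusted p = 0.831, limma), and it took the other sign under both other scalings (0.46 with cyclic loess and 0.17 after centring on the brighter genes). Without the number 2 HuR-IP arrays of DMSO and gemcitabine it was -1.18, and on those arrays CNOT4 was above the IgG-IP array of the same number by 1.53 and 1.93.

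Taken one treatment at a time, no subunit passed the adjusted threshold. In DMSO, 0.0209% of all genes were called higher and 0.478% lower. With olaparib the shares were 0.433% and 3.04%, and with gemcitabine 0.0568% and 0.977%. At an unadjusted p of 0.05 the subunits called were CNOT6 (log2FC 2.70), CNOT7 (3.74) and CNOT3 (-2.63) in olaparib, and none in DMSO or gemcitabine. The corresponding shares of all genes, higher and lower, were 5.60% and 12.4% in olaparib, 1.79% and 5.77% in DMSO, and 2.87% and 7.53% in gemcitabine. With the replicate block, CNOT6 and CNOT7 were higher in olaparib (adjusted p = 0.0215 and 0.0373, limma). In DMSO the log2FC was 1.79 for CNOT6 and 2.41 for CNOT7, and in gemcitabine it was 2.00 and 2.88. These values hung on single arrays. With 1 array left out, CNOT6 ranged from 0.59 (without the HuR-IP array numbered 1) to 2.99 (without that numbered 2) in DMSO, and from 0.74 to 3.25 in gemcitabine under the same omissions. CNOT7 ranged likewise from 0.29 to 4.53 in DMSO and from 0.86 to 4.90 in gemcitabine.

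**Figure D3:**
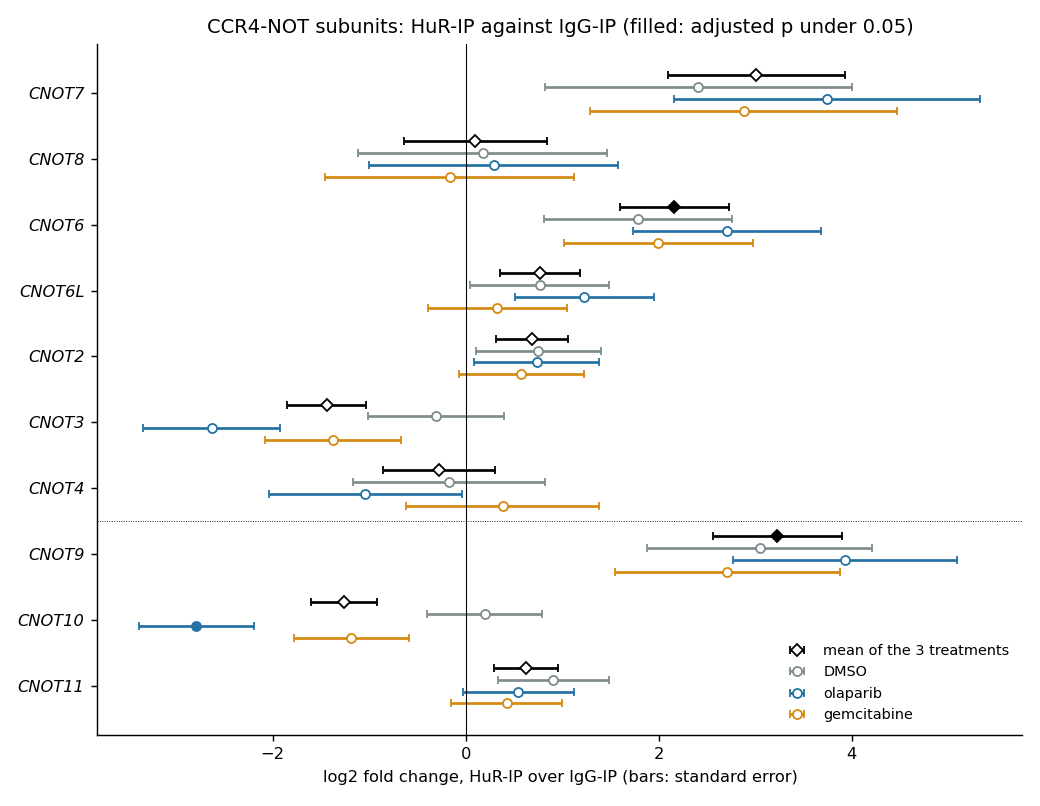
Log2 fold change of HuR-IP over IgG-IP (x axis, bars are standard errors) for the 7 measured subunits and, under the dotted line, CNOT9, CNOT10 and CNOT11; black diamonds are the mean of the 3 treatments, circles are DMSO (grey), olaparib (blue) and gemcitabine (orange), and filled symbols have an adjusted p under 0.05. CNOT6, CNOT9 and, in olaparib, CNOT10 carry the filled symbols, and the bars of single treatments overlap for most genes.

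Whether the drugs changed the recovery of a subunit was tested as the difference of its log2FC between drug and DMSO. Both comparisons use the same DMSO arrays. No subunit passed the adjusted threshold for olaparib or gemcitabine, and neither did any of the genes tested (0% for both drugs). At an unadjusted p of 0.05, 2.65% of all genes passed for olaparib and 1.51% for gemcitabine. CNOT3 was the only member among them, for olaparib, where its log2FC was lower than in DMSO by 2.33 on the log2 scale (95% interval -4.61 to -0.04, adjusted p = 1.00, limma). With 1 array left out the CNOT3 value ranged from -3.26, without the HuR-IP array numbered 1 of DMSO, to -1.39, without that numbered 2. For CNOT6 this difference was 0.91 with an interval of -2.24 to 4.07, and for CNOT7 it was 1.33 with an interval of -3.80 to 6.47, so changes of several log2 units in either direction could not be seen with these arrays. Comparing HuR-IP arrays alone, no subunit passed the adjusted threshold either, and CNOT3 was lower in olaparib than in DMSO by an unadjusted p (log2 difference -2.30, adjusted p = 0.832, limma). On the IgG-IP arrays no subunit passed even the unadjusted threshold for either drug.

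Of the remaining 3 CCR4-NOT subunits, 1 was called over the 3 treatments, against 2.39% of all genes higher and 7.51% lower. CNOT9, which gives the complex its docking surface for the miRNA machinery, was higher in HuR-IP with a mean log2FC of 3.23 ± 0.67 (SE, adjusted p = 0.0203, limma). Its IgG-IP arrays lay between 13.95 and 14.78 and its HuR-IP arrays between 15.56 and 18.92, without overlap and close to the top of the array scale. CNOT11, a subunit of the module at the scaffold's N terminus, had a log2FC of 0.63 (adjusted p = 0.299 in limma, 0.0315 with the replicate block). CNOT10, its partner in that module, had a log2FC of -1.26 (adjusted p = 0.0541, 0.0392 with the block). In olaparib CNOT10 was lower in HuR-IP, with a log2FC of -2.79 (adjusted p = 0.0439, limma), where 3.04% of all genes were lower. Its levels there were 7.78 and 8.26 in IgG-IP and 5.36 and 5.09 in HuR-IP. In DMSO its log2FC was 0.19, with levels of 8.13 and 6.33 in IgG-IP against 6.79 and 8.06 in HuR-IP. The other deadenylases gave no call among 6 genes, with log2FC of 3.23 for ANGEL2, a relative of the Ccr4-type nucleases, 3.07 for PDE12, which acts in mitochondria, -1.81 for PARN, the poly(A)-specific ribonuclease, and -0.96 for TOE1, which trims small nuclear RNAs. With the replicate block 3 of the 6 were higher and 2 lower, against 6.62% and 11.6% of all genes.

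The adaptors and tail-binding proteins gave single calls, where 2.39% of all genes were higher and 7.51% lower. Of 6 measured adaptors, which bring the Caf1-type nucleases or the scaffold to mRNAs, 1 was higher and 1 lower. TOB1, an antiproliferative protein that bridges CNOT7 or CNOT8 to the poly(A)-binding protein, was 6.34-fold higher in HuR-IP (log2FC 2.67, adjusted p = 0.0306, limma). Its IgG-IP levels were 12.74 to 13.84, and its HuR-IP levels were 16.62 to 16.79 on 4 arrays and 13.71 and 13.98 on the number 2 arrays of DMSO and gemcitabine. BTG3, of the same protein family, was lower (log2FC -1.50, adjusted p = 0.0486), and was not called in 4 of 8 other settings. The related TOB2 had a log2FC of 2.02 (adjusted p = 0.105, and 0.0252 with the block). NANOS1, an adaptor best known in germ cells, had -0.19. Of 9 tail-binding genes 1 was called, LARP1, which binds mRNAs of the translation machinery and poly(A), at a log2FC of 2.72 (adjusted p = 0.0453). LARP4B had 2.50 (0.0506), the nuclear poly(A)-binding protein PABPN1 1.86 (0.0911), and PAIP2, an inhibitor of the cytoplasmic one, -1.78 (0.150). With the block, 2 adaptors were higher and 1 lower, and 3 tail-binding genes were higher and 2 lower, beside 6.62% and 11.6% of all genes.

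Decapping and decay from the 5′ end follow deadenylation. Of 20 genes of these steps, none was higher and 2 were lower. Over all genes 7.51% were lower, so this count was near the background. The median log2FC of the list was -0.91, beside -0.56 for the 9139 genes with a mean level above 6. LSM7, a subunit of the LSM ring that binds shortened tails, had a log2FC of -2.04 (adjusted p = 0.0316, limma). NUDT16, a cap-cleaving hydrolase, had -1.34 (adjusted p = 0.0456). It was dim, at 4.83 to 5.83 in IgG-IP and 3.11 to 4.98 in HuR-IP. With a mean of 4.63 it was outside the fit of genes with a mean above 5. LSM3, of the same ring as LSM7, had -2.17 (adjusted p = 0.0546), and the helicase DDX6, which CNOT1 binds, had 2.49 (0.0597). With the block, 3 were higher, DDX6 among them, and 6 lower (6.62% and 11.6% of all genes). With cyclic loess the direction of the calls turned, with 2 higher and none lower (5.46% and 4.96% of all genes).

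Of 16 measured genes of the exosome and its SKI cofactor, which degrade deadenylated RNA from the 3′ end, 4 were lower and none higher, with a median log2FC of -1.19 and a background of 7.51% lower. These were EXOSC1 (log2FC -2.48, adjusted p = 0.00323, limma), EXOSC9 (-2.13, 0.00559), SKIC3 (-1.71, 0.0102) and EXOSC5 (-1.76, 0.0132). In the fit of the 12219 genes with a mean above 5, 2610 were lower, a larger share than over all genes. The count of 4 of 16 was near that share. The list median of -1.19 stood beside a median of -0.56 for the 9139 genes with a mean level above 6. EXOSC1, EXOSC5 and EXOSC9 belong to the core of the exosome, and SKIC3 is the scaffold of the SKI complex. EXOSC1 levels were 10.65 to 11.55 in IgG-IP and 7.17 to 9.89 in HuR-IP, without overlap. All 4 kept the call whichever array was left out, and 2 of them, SKIC3 and EXOSC5, missed it with cyclic loess (adjusted p = 0.0514 and 0.0517). With the block 2 genes of this list were higher and 8 lower, against 6.62% and 11.6% of all genes. Without the number 2 HuR-IP arrays of DMSO and gemcitabine 3 were higher and 5 lower, against 6.75% and 11.0%. Of 7 enzymes that add tails, PAPOLG, a nuclear poly(A) polymerase, was higher (log2FC 2.58, adjusted p = 0.0489), against 2.39% of all genes. Its log2FC ranged from 1.14 to 3.62 over 8 other settings, and it was called in 6 of them. TENT4A, TENT4B and TENT2, non-canonical enzymes that extend tails, had log2FC of 1.26, 0.69 and 0.42. With the block 2 of the 7 were higher, TENT4A among them, and none was lower. In the fit without the number 2 HuR-IP arrays of DMSO and gemcitabine the counts were 3 higher and 2 lower for the other deadenylases, 2 and 0 for the adaptors, 3 and 1 for the tail-binding genes, 1 and 5 for decapping and 2 and 0 for the tail-adding enzymes, with 6.75% of all genes higher and 11.0% lower. Of the calls in these lists outside the exosome and SKI genes, each was kept in 1 to 5 of 12 fits with 1 array left out, CNOT9 in 5, TOB1 and LSM7 in 3, LARP1, BTG3 and PAPOLG in 2 and NUDT16 in 1.

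**Figure D4:**
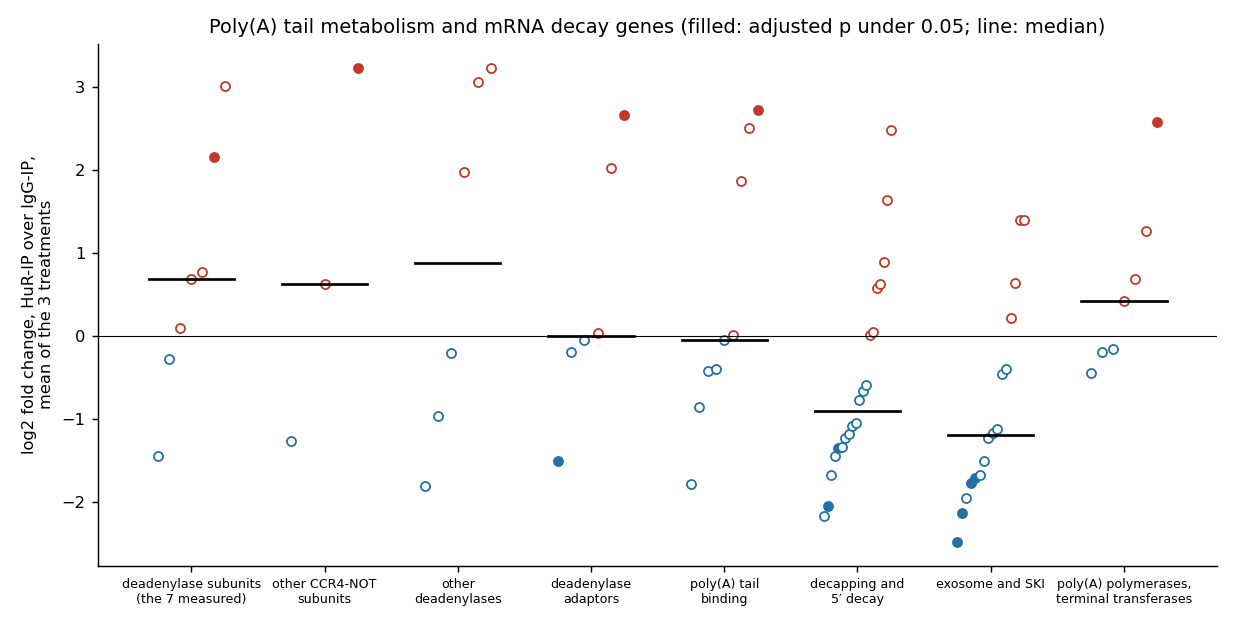
Mean log2 fold change of HuR-IP over IgG-IP over the 3 treatments (y axis) for each gene of 8 lists (x axis); red is above 0, blue below 0, filled symbols have an adjusted p under 0.05 and black lines are list medians. The medians of the decapping list (-0.91) and the exosome and SKI list (-1.19) lie below those of the other lists, and 4 exosome and SKI genes are filled.

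The genes whose levels followed each nuclease most closely over the 12 arrays were found among 7112 protein-coding genes with a mean level above 6. These were KPNA6 for CNOT6 (Pearson r = 0.99 over 12 arrays), GPBP1L1 for CNOT7 (0.99), UPRT for CNOT8 (0.96) and CDC73 for CNOT6L (0.87). The 12 points of each share the antibody, the treatments and the array numbers, so these values describe a shared pattern over the arrays and carry no test.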

How the data were processed

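RNA from HuR and IgG precipitates of MiaPaCa-2 cytoplasm was measured on 12 Clariom D arrays. The deposited table holds log2 signals per transcript cluster, which the authors made by RMA in Affymetrix Expression Console 1.4, per the labels; the genome build is not given in the sources used here. RMA equalises array distributions, so a fold change is relative to the other transcripts of the precipitate. Of 138745 features, 2995 controls were left out. Clusters were named through the platform annotation: 36176 carried 1 symbol, 1119 several and 98455 none. Where a gene had several clusters (1707 genes), the brightest was used, which gave 33458 genes. Symbols were updated through RefSeq gene tables (25516 clusters by gene ID, 9899 by symbol, 623 by older symbol, 138 kept). No arrays held the same values (correlations 0.88 to 0.98).

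Group means were fitted with limma 3.58.1 in R 4.3.3 (lmFit, eBayes; 6 residual degrees of freedom) on all arrays, with Benjamini-Hochberg adjustment across the 33458 genes and a threshold of 0.05. The study's methods gave no block for the replicate number. The numbers come from the labels, which do not say what they share. Deviations from the group means of same-numbered arrays correlated in all 15 pairs of groups (0.25 to 0.91 over 9139 genes with a mean above 6). The main fit and the main permutation test nevertheless took no account of the number. Values with the number as a block are therefore given beside the main ones where they change a call of a member, and for CNOT6. Other genes have such a value in some cases and otherwise only a count per list. ANGEL2, PDE12, PARN, TOE1, LARP4B, PABPN1, PAIP2 and LSM3 missed the threshold in the main fit and passed it with the block. Paralogues were compared by an exact permutation of the antibody labels within treatments (216 arrangements). From each list, up to 4 genes with the largest absolute moderated statistic are named, with all members, ELAVL1 and the most correlated gene of each nuclease. The members and lists were chosen with earlier results of these data known. The fit and the permutation test were tested on simulated data. Alternatives were cyclic loess, centring on the brighter genes, a trended and robust prior, a filter on dim genes, the replicate block, other cluster rules, a fit on only the arrays compared, and leaving out arrays. No sequences are shown. BTG1, BTG2, PABPC1 and EXOSC4 had no single-symbol cluster and were not used here.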

Additional observations from a re-analysis of the deposited data

Results flagged for a closer look

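The difference of the HuR-IP to IgG-IP log2 fold change between olaparib and DMSO had an unadjusted p under 0.05 for 4 of the genes named, and none of them passed the adjusted threshold (adjusted p = 1.00 for each, limma, 2 arrays per group). It was -2.33 for CNOT3, -2.98 for CNOT10, -2.87 for LSM7 and -1.93 for EXOSC1. On the HuR-IP array numbered 2 of DMSO, which stood closer to its IgG-IP array than most, these 4 genes were at 7.75, 8.06, 10.50 and 9.32, against 5.89, 6.79, 8.71 and 9.89 on the array numbered 1. Without that array the differences were -1.39, -2.35, -1.97 and -2.22, so those of CNOT3, CNOT10 and LSM7 were smaller in size and that of EXOSC1 was larger. Over all genes, 2.65% passed the unadjusted threshold.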

How the results depend on the processing

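The count of subunits higher in HuR-IP over the 3 treatments, 1 as reported, was 3 with cyclic loess, 3 after centring on the brighter genes, 3 with the replicate block, 2 with a trended and robust prior, 2 among genes with a mean above 5, 2 without the number 2 HuR-IP arrays of DMSO and gemcitabine, and 0 to 2 with 1 array left out. The count lower, 0 as reported, was 1 with the filter, 1 with the block, 2 without those HuR-IP arrays and 0 to 1 with 1 array left out. In olaparib the count higher, 0 as reported, was 1 after centring and 2 with the block, without those HuR-IP arrays, or with only the compared arrays fitted. The count lower was 1 under each of the latter 2 settings. In gemcitabine 2 were higher without those HuR-IP arrays. No subunit passed the threshold between drug and DMSO under any setting run. The excess of CNOT6 over CNOT6L (1.39) and of CNOT7 over CNOT8 (2.91) missed the adjusted threshold when exchange was restricted by the replicate block. The unadjusted p was then 0.0313 for the first, the smallest this exchange allows, and 0.0625 for the second (exact permutation test). With 1 array left out the excess ranged from 0.96 to 1.81 and from 2.41 to 3.41. Over all genes, calls higher and lower were 800 and 2512 as reported, 1828 and 1660 with cyclic loess, 2290 and 1726 after centring, which moved the median of all genes from -0.07 to 0.38, 2214 and 3887 with the block, and 2260 and 3678 without the number 2 HuR-IP arrays of DMSO and gemcitabine, which were picked for a small difference between antibodies. Of 1433 alternative values for single genes, 111 gained a call, 88 lost one, and 74, none of them called, had the other sign. The number of arrays limits what could be detected.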
